A study of Homo sapiens with 6 samples.

Results

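The 40 genes described here carry or restrain the signal of the B cell receptor: its CD79 chains, the proximal kinases and their brakes, adaptors, PI3K and AKT, phospholipase and calcium, calcineurin and NFAT, and the RAS and MAPK steps. They were taken by gene name from the deposited table, and 40 of 40 had a row among 34675. The cells were U2932, a human lymphoma line of the diffuse large B cell type. Of the 6 samples, 3 were infected with shPRDM11, a short hairpin RNA against the PR-domain gene PRDM11, and 3 with ShScramble, a hairpin without that target. All were selected with puromycin for 3 days, and the knockdown rests on a single hairpin, per the labels. Total RNA was sequenced, and the table compares a condition A with a condition B, 3 libraries each. No label or header says which condition holds the hairpin against PRDM11, so the conditions are called A and B throughout and are not tied to a hairpin.

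When antigen binds the receptor, the SRC-family kinase LYN phosphorylates the CD79A and CD79B tails, SYK docks there, and the adaptor BLNK brings BTK to phospholipase PLCG2. PLCG2 cuts a membrane lipid into inositol trisphosphate, which opens the ITPR calcium channels, and diacylglycerol, which recruits protein kinase C and the RASGRP activators of RAS. Calcium acts through calcineurin on the NFAT factors, PI3K acts through AKT, and phosphatases such as PTPN6 (SHP-1) and INPP5D (SHIP1) oppose the signal. Many diffuse large B cell lymphomas depend on this pathway.

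Of the 40 genes, 5 passed the authors' DESeq test at an adjusted p under 0.05, 1 of them higher in condition A and 4 lower, and among all genes 2.54% passed (0.966% higher and 1.57% lower). The gene that rose was CD79B, a signalling chain of the receptor. Those that fell were PTPN6, the SHP-1 phosphatase, ITPR3, an inositol trisphosphate receptor, and RASGRP1 and RASGRP3, exchange factors that load RAS with GTP. Of the 8887 genes with a mean of at least 500 normalised reads, a level that 39 of the 40 reached (reads scaled by the authors' size factors for depth), 5.52% passed (2.25% higher and 3.27% lower). Limma on reads recovered per library called 3 of the 34 members it tested, PTPN6, ITPR3 and RASGRP1, a share near its background of 9.23% of 17086 genes. No library label says whether the samples came from separate cultures, so p-values here rest on a sample-to-sample spread that could be technical only. In bulk RNA, fewer cells of a type and less RNA per cell cannot be told apart.

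The 250 bases before the annotated starts of the 3 genes that fell by the most, and before the most upstream start of RASGRP3, are shown because these 4 genes fell in the same condition. They are from RefSeq on GRCh38.p14, 5′ to 3′ in the direction of transcription. Capitals mark matches, on either strand, to the octamer ATGCAAAT, the E-box CAGGTG, the PU.1-type motif GAGGAAGT, the TATA motif TATAAA and the GC box GGGCGG.

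PTPN6, upstream start, chr12:6946327-6946576, plus strand: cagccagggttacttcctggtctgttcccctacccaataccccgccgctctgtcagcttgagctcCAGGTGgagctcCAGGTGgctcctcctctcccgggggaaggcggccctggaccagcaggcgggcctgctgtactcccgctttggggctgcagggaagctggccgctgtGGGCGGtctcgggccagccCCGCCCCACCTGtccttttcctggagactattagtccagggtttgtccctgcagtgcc

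PTPN6, downstream start, chr12:6951106-6951355, plus strand: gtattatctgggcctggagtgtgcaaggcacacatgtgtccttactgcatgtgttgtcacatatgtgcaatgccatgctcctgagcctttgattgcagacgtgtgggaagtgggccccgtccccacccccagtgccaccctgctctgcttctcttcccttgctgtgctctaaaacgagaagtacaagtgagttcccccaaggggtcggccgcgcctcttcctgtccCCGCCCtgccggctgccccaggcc

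ITPR3, chr6:33621072-33621321, plus strand: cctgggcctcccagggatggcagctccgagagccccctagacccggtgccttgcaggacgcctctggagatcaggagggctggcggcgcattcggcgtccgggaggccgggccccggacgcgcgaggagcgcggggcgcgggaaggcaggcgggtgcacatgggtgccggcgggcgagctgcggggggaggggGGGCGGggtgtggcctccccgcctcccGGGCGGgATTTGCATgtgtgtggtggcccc

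RASGRP1, chr15:38564815-38565064, minus strand: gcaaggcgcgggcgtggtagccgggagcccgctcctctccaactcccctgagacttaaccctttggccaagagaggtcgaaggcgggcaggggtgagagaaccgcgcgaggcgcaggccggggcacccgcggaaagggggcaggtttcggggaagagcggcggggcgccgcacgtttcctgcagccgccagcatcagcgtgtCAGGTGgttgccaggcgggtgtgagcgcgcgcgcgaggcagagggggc

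RASGRP3, most upstream start, chr2:33436098-33436347, plus strand: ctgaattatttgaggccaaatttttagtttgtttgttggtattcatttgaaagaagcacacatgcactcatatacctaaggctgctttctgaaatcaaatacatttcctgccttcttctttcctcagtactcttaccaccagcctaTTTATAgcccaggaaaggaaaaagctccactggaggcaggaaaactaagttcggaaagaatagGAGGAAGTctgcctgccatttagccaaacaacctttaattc

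The octamer, a site bound by OCT1 and OCT2 in immunoglobulin promoters, stood in the ITPR3 stretch 23 bases before the start, written as its reverse complement ATTTGCAT. Of 35116 promoters in the RefSeq table, 1.63% held it in the same window. ITPR3 also held 2 GC boxes, a motif that 42.6% of promoters held. The upstream PTPN6 start held 3 E-boxes of the type bound by E2A factors in B cells, and 2 GC boxes, and 17.5% of promoters held this E-box. The downstream PTPN6 start held 1 GC box. RASGRP1 held 1 E-box in a stretch with 71.6% G or C, against 39.6% in the RASGRP3 stretch, which held 1 PU.1-type motif (2.17% of promoters) and 1 TATA motif (10.7%). Of the 59 stretches of the 33 genes with an entry, 2 held the octamer, 17 the E-box, 32 the GC box and 6 the PU.1-type motif. The other octamer was in the PRKCB stretch, 80 bases before the start, and PRKCB did not pass. The AP-1 motif TGANTCA was in 0 of the stretches, and 6.57% of promoters held it. Of the other RASGRP3 starts, not shown, the stretch before the second held 2 E-boxes and 3 TATA motifs and that before the third 1 GC box. No match overlapped another in the 5 stretches. The files do not say which start is used in these cells.

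The 40 genes spanned a wide range of levels. In normalised reads per kilobase of the longest annotated transcript, a measure of level, the median in condition A was 1111. CD79A stood at 42510 in condition A against 31480 in condition B, CD79B at 16280 and 12170, and CSK, the kinase that holds SRC-family kinases off, at 11760 and 11250. These 3 led in both conditions. RASGRP3 came next, with 4380 in condition A against 5892 in condition B, followed in condition A by BLNK at 4167 and GRB2 at 4068. At the low end stood PRKCB at 141, RASGRP1 at 132 and ITPR1 at 119 per kilobase in condition A. PIK3R5, a regulatory subunit that partners PIK3CG, was almost unread, with 1, 5 and 2 reads in condition A and 5, 5 and 1 reads in condition B, and no fold is given for it.

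**Figure D1:**
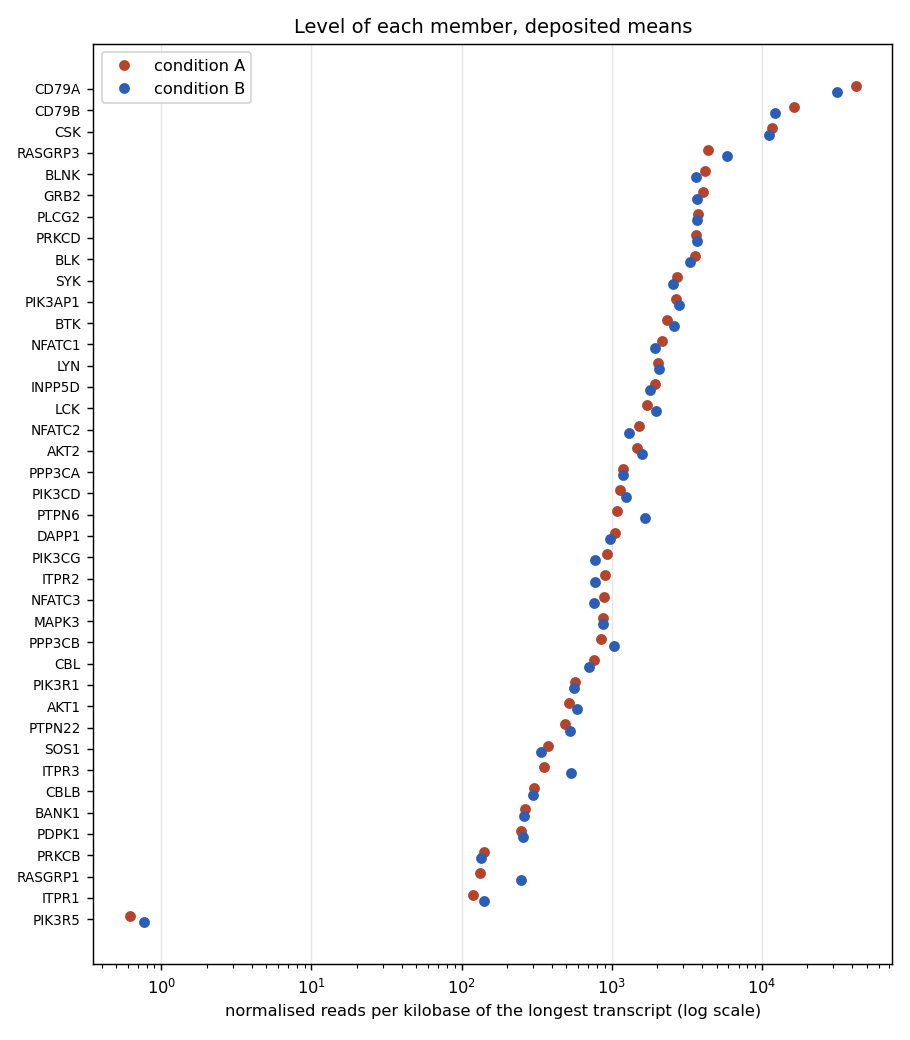
Level of each of the 40 genes, in normalised reads per kilobase of the longest annotated transcript on a log scale, from the deposited means of condition A (red) and condition B (blue). CD79A and CD79B lie at the top, with 42510 and 16280 in condition A, and PIK3R5 lies alone at the bottom.

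Whole reads per library could be recovered from the long decimals of the deposited means for 35 of the 40 genes. For CD79A, CD79B, CSK, PLCG2 and RASGRP3 more than 1 whole-number solution was left in condition A, and each is given where it matters. Where several fitted, those with every library at 0.7 to 1.4 times the mean were kept. On simulated condition A reads above a mean of 10000, 34 of 68 genes were recovered and 1 was wrong. Library values above that mean in condition A therefore rest on the solution kept. Libraries are numbered by falling size factor and are tied to no sample name. Recovered depth ran from 21884416 to 33867182 reads in condition A and from 26107825 to 30570318 in condition B over the 34148 genes solved in both. Library 3 of condition A and library 1 of condition B departed from their condition means together, with r = 0.67 across 8360 genes, which are not independent replicates. Library 1 of A and library 3 of B did so as well (r = 0.70), and library 2 of A with library 2 of B less (r = 0.24). The SD of that departure was 0.17 log2 in library 3 of A, 0.14 in library 1 of A and 0.13 in library 1 of B. In the other 3 it was 0.06 to 0.08. Library 1 of A departed the opposite way from library 1 of B (r = -0.68). Within a condition the departures of the 3 libraries cancel out by construction, so these values of r are not separate observations. Without library 3 of A and library 1 of B, an alternative chosen after seeing the data, limma called 9 of 34 members, beside 26.1% of all genes tested. The log2 ratios were then -0.60 for PTPN6, -0.64 for ITPR3 and -1.04 for RASGRP1, and the other 6 called were AKT1, AKT2, ITPR1 and PPP3CB, lower in A, and PIK3CG and ITPR2, higher in A. Of the 35 genes, 19 had both libraries at the same end of their conditions. In no gene was library 3 of A the lowest while library 1 of B was the highest, and the reverse held in 7. B cell markers were present, 7 of 7 at a mean of 500 or more, with a summed level of 359400 normalised reads in condition A against 289400 in condition B. CD74, which did not pass, made up 147738 and 107833 of these sums, which also include CD79A and CD79B. The B cell markers did not move together: 1 passed higher in condition A and 1 lower, and CD22 and PAX5 had log2 ratios of -0.11 and 0.01. T cell markers summed to 1113 in condition A against 1610 in condition B, nearly all of it CD247, which fell (1006 against 1493). The other 6 T cell markers with a row were under 60, and CD3D and CD2 have no row. Myeloid markers summed to 69.8 against 58.9 and NK cell markers to 39.2 against 38.3. Epithelial and fibroblast markers summed to 1352 against 1324, of which EPCAM made up 1285 and 1242. The part of these markers in the results was not tested. PRDM11 itself averaged 288 normalised reads in condition A against 542 in condition B (log2 ratio -0.91, adjusted p = 1.76e-08 in the authors' deposited table).

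As a set, the 39 genes above 500 normalised reads were centred near no difference. Ratios are given as log2 of condition A over condition B. Their median was 0.02, with 23 above 0 and 16 below, beside 0.01 over the 8887 genes of that level. Ratios ran from -0.92 for RASGRP1 to 0.43 for CD79A. In 6 of the 39 the higher condition exceeded the lower by at least 25%, beside a background of 15.6%, so the share was near that of other genes. At 1.5-fold or more the count was 3 of 39, PTPN6, ITPR3 and RASGRP1, beside 2.26%. The libraries of the conditions did not overlap in 15 of the 35 recovered genes, 7 higher and 8 lower in condition A, beside 34.7% of 8360 genes.

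**Figure D2:**
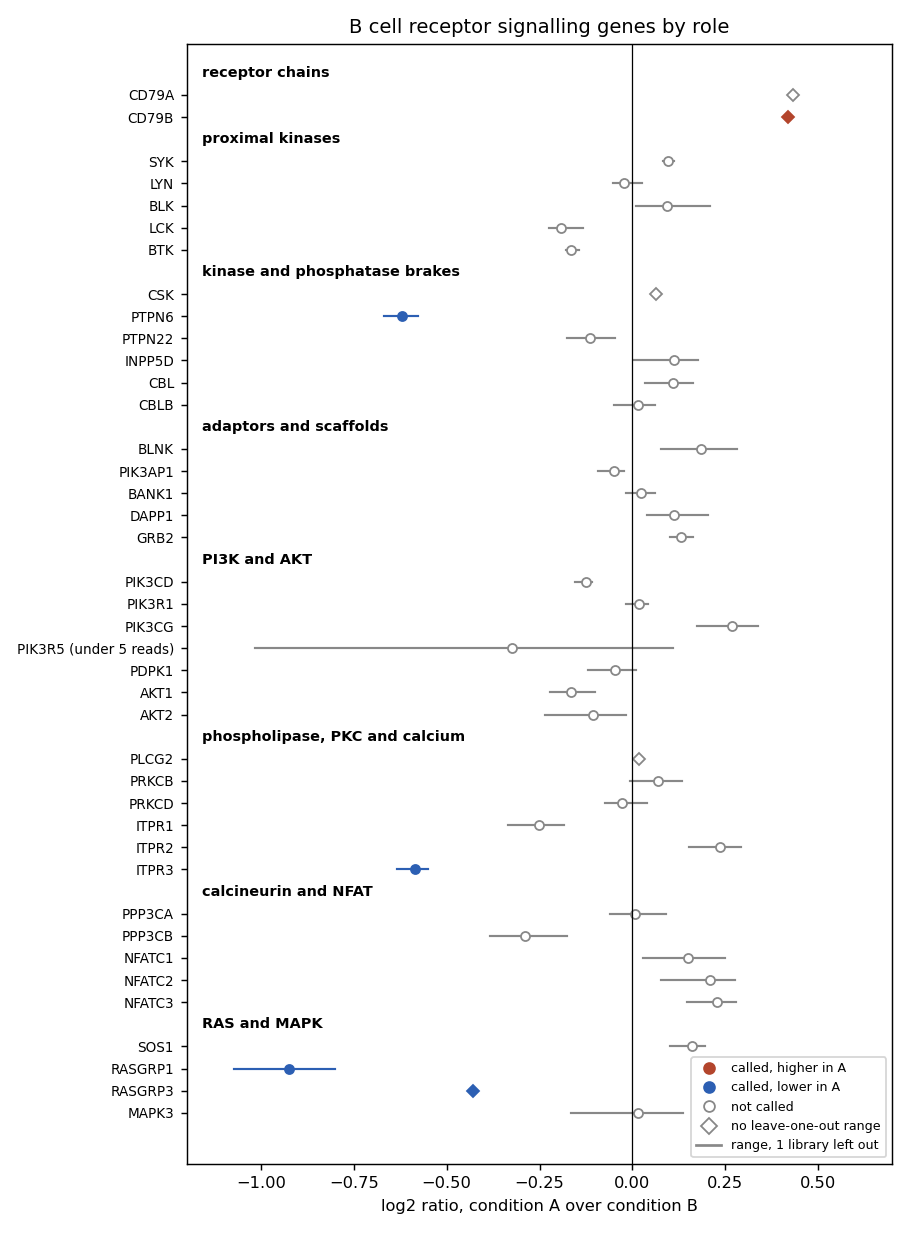
Log2 ratio of condition A over condition B for the 40 genes by role, from the deposited means, with lines for the range when each recovered library was left out. Filled points passed at a deposited adjusted p under 0.05: CD79B to the right of 0, and PTPN6, ITPR3, RASGRP1 and RASGRP3 to the left.

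The receptor chains were higher in condition A by about the same ratio, and 1 of 2 passed. CD79A and CD79B form the pair that carries the activation motifs beside membrane immunoglobulin. CD79B averaged 20659 normalised reads in condition A and 17564, 14117 and 14642 in the 3 libraries of condition B. Its condition A libraries were 18078, 15376 and 28521, or 19961, 19580 and 22435, or 21843, 23785 and 16348, and only the middle solution is clear of condition B. The log2 ratio was 0.42, and the authors' deposited table gave an adjusted p of 0.0226. With limma on the recovered reads the adjusted p was 0.228, 0.0245 or 0.0843 for the 3 solutions, so the limma call depends on which is right. CD79A averaged 53480 normalised reads in condition A, against 48264, 36519 and 34006 in the libraries of condition B. Each of its 10 solutions for condition A overlapped condition B, whose library 1 was the high one. Its log2 ratio, 0.43, was as large as that of CD79B, but it did not pass (adjusted p = 1 in the authors' deposited table, limma adjusted p between 0.0618 and 0.178 over the solutions). CD79A made up 72.3% of the pair per kilobase in condition A against 72.1% in condition B. The hg19 coding intervals span chr17:62006589-62009621 for CD79B and chr19:42381375-42385044 for CD79A.

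Of the 5 proximal kinases, 0 passed the authors' DESeq test, 0 at an unadjusted p under 0.05 and 0 by limma, and none differed by 25% or more. As background for the unadjusted counts here and below, 1745 of the 8887 genes averaging 500 normalised reads or more were under 0.05 by the DESeq test. SYK, which binds the phosphorylated CD79 tails, had 14026, 13432 and 13762 normalised reads in condition A, against 13110, 12735 and 12718 in condition B. In the solution kept, every SYK library of A lay above every library of B. The step was small, at a log2 ratio of 0.10 (adjusted p = 1 in the authors' deposited table). LYN, the main kinase of those tails, had 12199, 12372 and 11061 normalised reads in condition A, against 11912, 12199 and 12091 in condition B. LYN overlapped, and its ratio was -0.02. BTK, the target of ibrutinib, had 6368, 6532 and 6405 normalised reads in condition A, against 7437, 7096 and 7125 in condition B. The BTK libraries of A all lay below those of B, by a log2 ratio of -0.17 (adjusted p = 0.847 in the authors' deposited table). LCK, best known as the SRC-family kinase of T cells, had 3689, 3773 and 3783 normalised reads in condition A, against 4627, 4127 and 4088 in condition B. LCK did not overlap either, at a log2 ratio of -0.19 (adjusted p = 0.679 in the authors' deposited table). BLK, the B lymphoid member of the SRC family, had a ratio of 0.09 with overlapping libraries. Per kilobase, BLK held 41.5% of the summed level of 7 SRC-family genes in condition A against 36.6% in condition B.

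Among the 6 brakes, PTPN6 fell and the other 5 did not pass, each differing by less than 25%. PTPN6 encodes SHP-1, which strips phosphates when inhibitory receptors such as CD22 and CD72 are engaged. It had 2667, 2469 and 2709 normalised reads in the 3 libraries of condition A, against 4258, 4054 and 3751 in condition B. The highest library of A lay well below the lowest of B. The means were 2615 ± 128 in condition A, against 4021 ± 255 in condition B (SD, n = 3 each), a log2 ratio of -0.62 (adjusted p = 1.95e-05 in the authors' deposited table). Limma on the recovered reads gave -0.62 with an SE of 0.08 and an adjusted p of 0.00261, and the ratio stayed between -0.67 and -0.58 when each library was left out. PTPN6 lies at chr12:7055889-7070080 in hg19, the span of its coding intervals. Of the summed level of 4 SH2-domain phosphatase genes per kilobase, PTPN6 held 17.4% in condition A against 25.1% in condition B, beside INPP5D, PTPN11 and INPPL1.

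INPP5D, the SHIP1 lipid phosphatase that works with FCGR2B, had 9366, 9720 and 11781 normalised reads in condition A, against 10325, 9194 and 9021 in condition B. Its libraries overlapped, with library 3 of A and library 1 of B each the highest of its condition, and its ratio was 0.11. CSK averaged 32535 normalised reads in condition A against 31116 in condition B, a ratio of 0.06, and each of its 4 solutions overlapped. PTPN22, a phosphatase that pairs with CSK, had a ratio of -0.11, and the ubiquitin ligases CBL and CBLB had 0.11 and 0.01, all with overlapping libraries.

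Of the 5 adaptors, 0 passed the authors' DESeq test, 0 at an unadjusted p under 0.05 and 0 by limma. BLNK, the scaffold that joins SYK to BTK and PLCG2, had 6387, 7416 and 8501 normalised reads in condition A, against 6971, 6399 and 6263 in condition B. BLNK varied more within condition A than between the conditions, and its log2 ratio was 0.18 (adjusted p = 1 in the authors' deposited table). GRB2, which links receptors to the RAS activator SOS1, averaged 15170 ± 651 normalised reads in condition A, against 13858 ± 212 in condition B (SD, n = 3 each). GRB2 was the only adaptor whose conditions did not overlap in the solution kept, at a ratio of 0.13. DAPP1, a PI3K-dependent adaptor, had 0.11, BANK1, a B cell scaffold, 0.02 and PIK3AP1, which couples the receptor to PI3K, -0.05.

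The PI3K and AKT group gave 0 of 7 calls by the authors' DESeq test and 0 by limma, with 1 gene, PIK3CG, at an unadjusted p under 0.05. PIK3CD, the p110-delta subunit that dominates in B cells and is the target of idelalisib, had 6134, 6099 and 6481 normalised reads in condition A, against 6976, 6914 and 6528 in condition B. The conditions nearly touched, at a ratio of -0.13. PIK3CG, the p110-gamma subunit, had 4916, 4932 and 5133 normalised reads in condition A, against 3597, 4544 and 4307 in condition B. All 3 libraries of A were higher, at a log2 ratio of 0.27 (adjusted p = 0.323 in the authors' deposited table). PIK3CD made up 35.2% of the 4 class I catalytic subunits per kilobase in condition A against 40.4% in condition B, and PIK3CG 28.7% and 25.1%. AKT1, the kinase below PI3K, had 4186, 4254 and 4721 normalised reads in condition A, against 5357, 4735 and 4672 in condition B. Its highest A library was above its lowest B library, so the conditions overlapped, at a ratio of -0.17. AKT2 had -0.11, PDPK1, the kinase that activates AKT, -0.05, and PIK3R1, the p85-alpha subunit, 0.02.

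In the phospholipase, protein kinase C and calcium group, ITPR3 fell and 5 of 6 did not pass. The ITPR genes encode the calcium channels of the endoplasmic reticulum that inositol trisphosphate opens. ITPR3 had 3325, 3642 and 3544 normalised reads in condition A, against 4902, 5451 and 5419 in condition B. The gap between the conditions was wider than the range within either. The means were 3504 ± 163 in condition A, against 5257 ± 308 in condition B (SD, n = 3 each), a log2 ratio of -0.59 (adjusted p = 7.85e-05 in the authors' deposited table). Limma gave -0.58 with an SE of 0.08 and an adjusted p of 0.00285, and the range with a library left out was -0.63 to -0.55. Its coding intervals span chr6:33589380-33663554 in hg19.

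ITPR2 lay on the other side of 0. It had 11056, 9787 and 10220 normalised reads in condition A, against 7709, 9452 and 9197 in condition B. In the solution kept, all 3 libraries of A were above those of B, at a log2 ratio of 0.24. The gene did not pass (adjusted p = 0.389 in the authors' deposited table). ITPR1 had 1271, 1170 and 1208 normalised reads in condition A, against 1279, 1583 and 1485 in condition B. Library 1 of each condition came within 8 normalised reads, and the ratio was -0.25 (adjusted p = 0.491 in the authors' deposited table). Per kilobase, the 3 receptors summed to 1382 in condition A against 1445 in condition B. ITPR3 made up 23.5%, 27.5% and 26.1% of that sum in the libraries of condition A, against 38.3%, 36.0% and 36.6% in condition B. ITPR2 made up 67.8%, 64.0% and 65.2% in condition A, against 52.1%, 54.0% and 53.7% in condition B. ITPR2 was thus the main form in all 6 libraries, with a larger share in condition A, and no test was run on these shares.

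**Figure D3:**
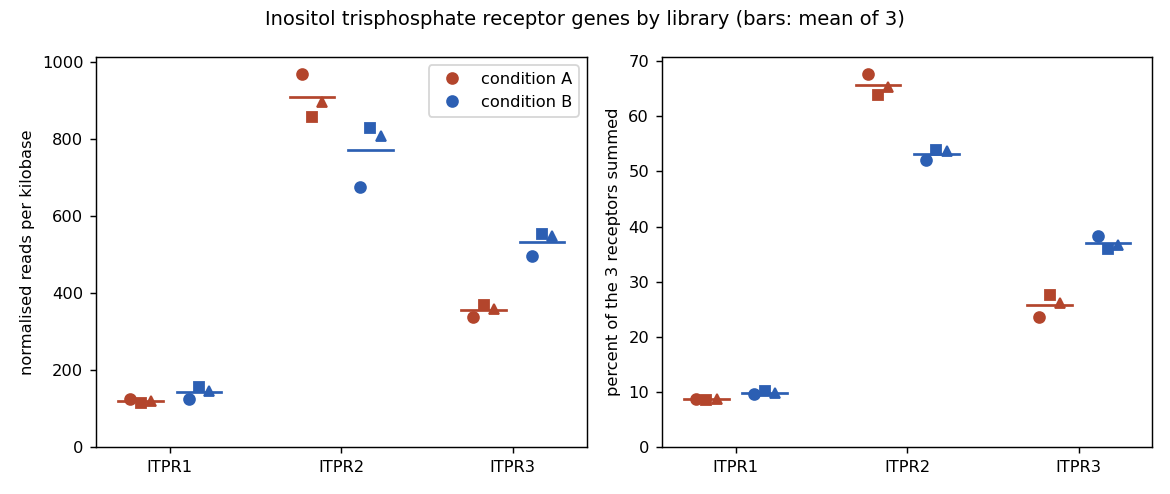
Level of the 3 inositol trisphosphate receptor genes in normalised reads per kilobase of the longest transcript (left) and as percent of their sum (right), by library (circle, square and triangle for libraries 1, 2 and 3), with condition A in red left of condition B in blue and bars at the means. ITPR3 lies between 23.5% and 27.5% in condition A and between 36.0% and 38.3% in condition B.

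PLCG2, the phospholipase of this pathway, averaged 32733 normalised reads in condition A, against 31642, 33153 and 32238 in condition B. It had a ratio of 0.02, and each of its 4 solutions for condition A overlapped condition B. PRKCB, the protein kinase C form that links the receptor to NF-kB, had 1125, 1126 and 1127 normalised reads in condition A, against 960, 1170 and 1093 in condition B. PRKCB overlapped, at a ratio of 0.07. PRKCD, a second form of the kinase, had -0.03 and stood at 3653 per kilobase in condition A against 3725 in condition B, far above PRKCB at 141 and 134.

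In the calcineurin and NFAT group 0 of 5 passed the authors' DESeq test and 0 by limma, with 1 gene, PPP3CB, at an unadjusted p under 0.05. NFATC1, a calcium-driven transcription factor of activated lymphocytes, had 9300, 9775 and 12021 normalised reads in condition A, against 10588, 8720 and 8721 in condition B. Its libraries overlapped, the high ones again being library 3 of A and library 1 of B, at a ratio of 0.15. NFATC2 and NFATC3, its relatives, had 0.21 and 0.23. Their conditions did not overlap, for NFATC2 in the solution kept, and neither passed (adjusted p = 0.956 and 0.598 in the authors' deposited table). PPP3CB, a catalytic subunit of calcineurin, had 3359, 3079 and 2495 normalised reads in condition A, against 3656, 3547 and 3712 in condition B. The libraries of A all lay below those of B, at a log2 ratio of -0.29 (adjusted p = 0.377 in the authors' deposited table). PPP3CA, another catalytic subunit, had a ratio of 0.01.

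Both RASGRP genes fell, and SOS1 and MAPK3 did not pass. RASGRP1 and RASGRP3 are the exchange factors that turn diacylglycerol into RAS activation. RASGRP1 had 677, 676 and 636 normalised reads in condition A, against 982, 1460 and 1328 in condition B. All libraries of A lay below those of B, whose library 1 was the lowest of its condition. The means were 663 ± 23 in condition A, against 1257 ± 247 in condition B (SD, n = 3 each), and the log2 ratio, -0.92, was the largest in size of the 40. The authors' deposited table gave an adjusted p of 0.00318. Limma gave -0.90 with an SE of 0.14 and an adjusted p of 0.00455, and the range with a library left out was -1.07 to -0.80. Its coding intervals span chr15:38782758-38857690 in hg19.

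RASGRP3 averaged 21053 normalised reads in condition A, against 27299, 28129 and 29546 in condition B. Its condition A libraries were 19875, 16999 and 26284, or 21757, 21203 and 20198, and in both solutions all lay below condition B. The log2 ratio was -0.43, and the authors' deposited table gave an adjusted p of 0.0150. Limma gave an adjusted p of 0.0588 for the first solution and 0.00561 for the second. Its coding intervals span chr2:33740204-33787801 in hg19. Per kilobase, RASGRP3 made up 97.0% of RASGRP1, RASGRP2 and RASGRP3 summed in condition A against 95.8% in condition B, and the sum was 4516 in condition A against 6152 in condition B. RASGRP1 thus had the larger ratio and RASGRP3 the larger level.

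SOS1, the exchange factor that GRB2 brings to receptors, had 3126, 3068 and 3485 normalised reads in condition A, against 2791, 2925 and 2946 in condition B. SOS1 did not overlap, at a ratio of 0.16, in the opposite direction to the RASGRP genes (adjusted p = 0.965 in the authors' deposited table). MAPK3, the ERK1 kinase at the end of the branch, had 1860, 2118 and 2782 normalised reads in condition A, against 2527, 2156 and 2011 in condition B. MAPK3 spread widely within both conditions, its ratio was 0.01, and the sign turned when library 3 of A was left out (-0.17).

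**Figure D4:**
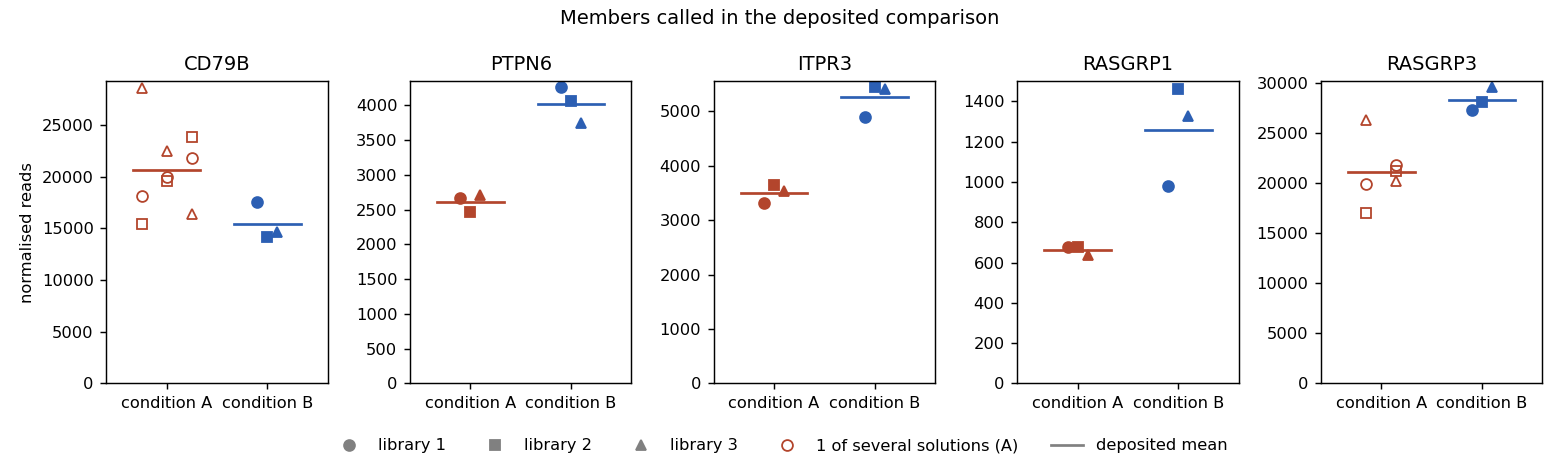
Normalised reads of the 5 genes that passed, by library (circle, square and triangle for libraries 1, 2 and 3), with condition A in red left of condition B in blue and bars at the deposited means. Open symbols in CD79B and RASGRP3 show each whole-number solution in turn, and PTPN6, ITPR3 and RASGRP1 have all libraries of condition A below those of condition B.

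Of 108 rows for other genes of the pathway (PIK3R2 has 2 and PIK3R6 none), 12 (11.1%) passed the authors' DESeq test. Of the 12, 5 were higher and 7 lower in condition A. The share that passed was 2.54% over all genes. It was 5.52% over the 8887 genes averaging 500 normalised reads or more, a level that 86 of the 108 rows reached. The pathway lists cover coreceptors, the NF-kB branch, RAS and MAPK steps, paralogues of the 40, other kinases and adaptors, and store-operated calcium entry. The coreceptors had 1 gene higher and 3 lower of 17. CR2 (CD21), a complement receptor, had 655, 667 and 644 normalised reads in condition A, against 785, 974 and 933 in condition B. CR2 did not overlap, at a log2 ratio of -0.45 (adjusted p = 0.0246 in the authors' deposited table), and CD72, an inhibitory receptor that recruits SHP-1, had -0.55. FCRLA, an intracellular Fc receptor-like protein, was the higher gene, at 0.40 (adjusted p = 0.0452 in the authors' deposited table), with all of its 3 solutions above condition B. Limma gave FCRLA an adjusted p of 0.176, 0.0257 or 0.0335 for these solutions, so its limma call depends on which is right.

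Among 26 other kinases and adaptors, 3 rose and 3 fell. Of all genes 2.54% passed, and of those averaging 500 normalised reads or more 5.52%. GAB1 and GAB2, docking proteins for PI3K and SHP-2, had log2 ratios of 0.57 and 0.47, and SH3KBP1, a CBL-binding adaptor, had 0.50. FYN and FGR, further SRC-family kinases, had -0.57 and -0.39, and PAG1, the membrane adaptor that anchors CSK, had -0.55. GAB2, FGR and PAG1 passed narrowly (adjusted p = 0.0482, 0.0436 and 0.0407 in the authors' deposited table) and did not pass at 0.01. FYN had 2739, 2707 and 2898 normalised reads in condition A, against 4645, 3835 and 3922 in condition B. Its conditions did not overlap (adjusted p = 0.000113 in the authors' deposited table), whereas those of LYN did, and the difference between these 2 kinases was not tested.

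The RAS and MAPK list had 1 of 19, RASA3, a GTPase-activating protein that switches RAS-type proteins off. RASA3 had 3518, 3606 and 3678 normalised reads in condition A, against 2426, 2537 and 2367 in condition B. It rose without overlap, at a log2 ratio of 0.56 (adjusted p = 0.000346 in the authors' deposited table). Store-operated calcium entry had 1 of 10, ORAI3, a plasma membrane calcium channel subunit, with 80.2, 116 and 133 normalised reads in condition A, against 196, 222 and 186 in condition B. ORAI3 had a log2 ratio of -0.88 (adjusted p = 4.19e-05 in the authors' deposited table). The NF-kB branch had 0 of 16 and the paralogues of the 40 genes 0 of 20 by the authors' DESeq test, with 4 and 5 at an unadjusted p under 0.05. Of the 8887 genes averaging 500 normalised reads or more, 1745 had an unadjusted p under 0.05 by the same test. Limma on the recovered reads called 2 of the 16 tested in the NF-kB branch, RELA, higher in condition A, and CHUK, lower. Among the 18 paralogues tested it called 3, PIK3R3 and PRKCH among them, 1 higher and 2 lower, and over all genes it called 9.23%.

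**Figure D5:**
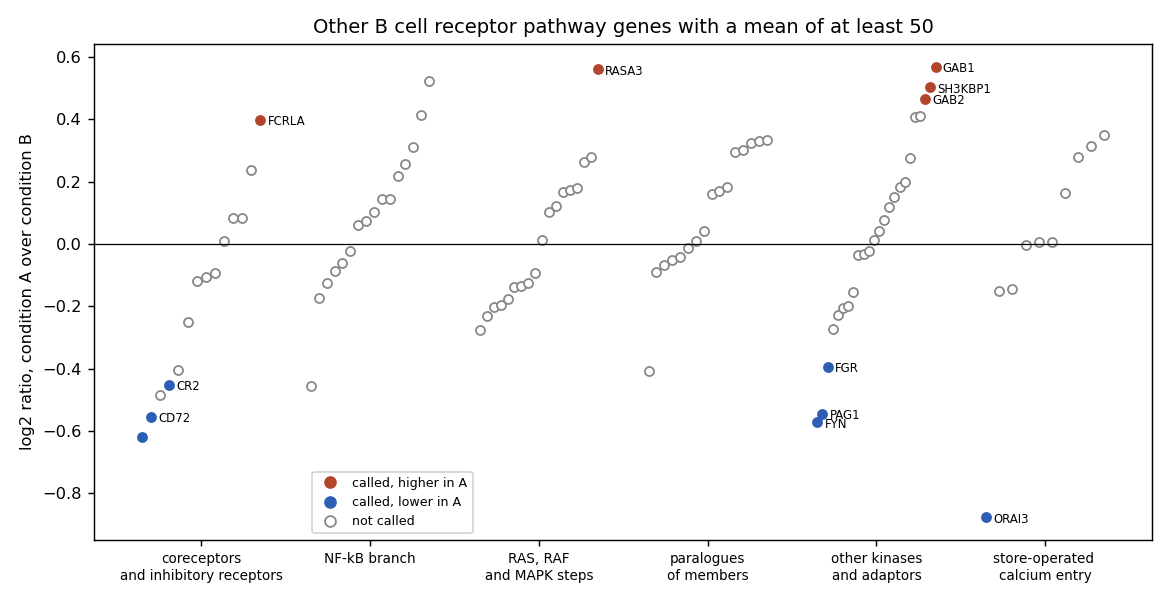
Log2 ratio of condition A over condition B for other genes of the receptor pathway with a mean of at least 50 normalised reads, by list, from the deposited means and ordered within each list. Filled points passed: 5 genes above 0, among them GAB1 and RASA3, and 7 below, among them FYN and ORAI3.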

How the data were processed

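The submitters' processing notes name the build hg19 and the tools STAR, HTSeq 0.5.4p5 and DESeq 1.14.0. Neither the strand setting nor the annotation release is given in the sources used here, so reads of overlapping and antisense genes may be mixed. Per the file headers, the authors deposited mean normalised reads, that is, counts over size factors. Their deposited fold is condition B over A, and its log2 is given in the text with the sign turned, from the deposited means. The deposited p-value and adjusted p-value come from the authors' DESeq comparison, per the file headers and the submitters' processing notes, and a gene was called at an adjusted p under 0.05. A deposited interval track in hg19 gave the coding spans, counted from 1, and its deposited score was not used.

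Whole reads per library were searched for that give both condition means to all 15 digits. In condition A 31434 of 31928 rows searched ended with a single solution, and in condition B 31755 of 31757. Of the rows searched, 537 in A and 18 in B reached it only through the narrower window given below. Means above 60000 were not searched, and the solved rows held 64.2% of the summed means in A and 93.2% in B. Size factors were 1.21, 1.03 and 0.768 in A, and 1.09, 1.05 and 0.951 in B. Solutions above a mean of 500 were sought within 0.5 to 2 times the mean, and where several were found, within 0.7 to 1.4 times. On simulated reads, 98.8% of condition A genes were recovered and 1 was wrong, and above a mean of 10000, 34 of 68. Limma 3.58.1 (R 4.3.3) was run on log2(normalised reads + 0.5) for 17086 genes with a mean of at least 10. On simulated reads at this size it called 95 of 100 genes changed by 1 log2, 68 of 100 changed by 0.5 log2 and 4 of 16886 unchanged genes. The simulated reads were drawn independently, without the departures that the real libraries share, so these counts need not hold for the real libraries.

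Lengths are of the longest GENCODE 29 transcript. Promoters were matched by symbol for 33 of 40 genes. All 40 genes were kept, and values per library are given for genes that passed, for those at least 1.5-fold apart and for a fixed set of core genes. From the other lists, genes that passed are named, except for items not reported here, with limma calls in 2 lists without deposited calls. The members and lists were chosen with earlier results of these data known. No column of per-sample values was left out (0).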

Additional observations from a re-analysis of the deposited data

How the results depend on the processing

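At an adjusted p under 0.01, 505 genes were called (881 at 0.05), with 3 of the 40 (PTPN6, ITPR3 and RASGRP1) and 7 pathway rows (12 at 0.05). Limma on recovered reads called 1577 genes (9.23% of 17086), the same 3 members and 19 of the 96 pathway rows it tested. It shared 843 of the 845 deposited calls it tested. It could not test CD79B and RASGRP3 with a single value. Leaving out each library in turn gave 367 to 2243 limma calls over all genes, 3 to 4 among the members and 4 to 24 in the pathway lists. The low counts of 367, 370 and 377 came without library 2 of A, library 2 of B and library 3 of B, and 1048 were called without library 1 of B. The fourth member was PPP3CB, without library 1 of A (limma adjusted p = 0.0325, against 0.161 to 0.281 without any other single library and 0.103 with all). PTPN6, ITPR3 and RASGRP1 were called each time. Without library 3 of A and library 1 of B together, an alternative added after seeing the data, limma called 4456 genes and 9 members: those 3, AKT1, AKT2, ITPR1 and PPP3CB lower, and PIK3CG and ITPR2 higher in A. The cause was not tested. With a step of 25% as the limit 6 members stood apart, and at 2-fold 0 (3 at 1.5-fold). Other pseudocounts, scalings, filters and a threshold of 0.10 kept member counts at 3 by limma and 5 by the deposited test. Median level per coding kilobase was 2880 in condition A, and the same 3 genes led. No paired analysis was possible because the recovered libraries carry no replicate number. The 5 genes with several solutions lack leave-one-out values, and depth leaves PIK3R5 unmeasured.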
